A study of Mus musculus with 6 samples.

Results

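Small nucleolar RNA (snoRNA) genes were read from brain lesions on 6 arrays. A gene was taken where a probe set of the deposited table had exactly 1 gene symbol in the platform annotation and that symbol began with Snora or Snord. Where a gene had more than 1 such probe set, the brightest on average was kept. This gave 73 genes of the 22180 genes with such a probe set, 26 of the H/ACA class (Snora) and 47 of the C/D class (Snord). All 73 symbols matched a RefSeq gene by gene number, 72 of them typed as snoRNA and 1, Snord73b, as snRNA. Members were thus selected on their symbols, and their probe sets chosen by mean level. The class was taken up because Snora23 differed between the groups on these arrays, so its values are given as a description, without a test.

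The study asked what astrocytes do in early myelin repair. The first group held 3 lesions of transgenic mice, whose non-proliferating GFAP-positive astrocytes can be eliminated, and the second held 3 lesions of wild type mice. In mice of both genotypes aged 5 to 6 weeks, demyelinating lesions were made with LPC, a detergent-like lipid, the ablation compound CID was injected 48 hours later, and lesions were taken 7 days after the lesion. Total RNA of 1 macrodissected lesion went onto each array. Whether each lesion came from a different animal is not stated, and the p-values below therefore cover the spread among these 6 lesions, which may be technical. The labels name neither the promoter construct nor the line of the transgene, and the GFAP marker itself, Gfap, was measured in both groups (transgenic minus wild type -0.37 on the log2 scale, adjusted p 0.695 in limma).

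Most snoRNAs are cut from introns of a host gene after splicing. C/D snoRNAs guide the methylation of ribose and H/ACA snoRNAs guide the conversion of uridine to pseudouridine, for the most part in ribosomal RNA, and a few are needed to cleave the rRNA precursor. Each works as a particle with a core of class-specific proteins, and many host genes encode ribosomal proteins or translation factors, or are noncoding RNAs whose exons have few other known products.

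Levels below are log2 values of RMA intensities, the array summary in which the authors deposited the data, and a difference is transgenic minus wild type on that scale. Levels are compared between groups and not between genes, since probe sets differ in their response. The array medians lay between 5.34 and 5.59 in transgenic lesions and between 5.52 and 5.55 in wild type lesions. Xist stood at 4.42 to 4.67 in transgenic replicates 1 and 3, at 9.14 in transgenic replicate 2 and at 9.30 to 9.49 in wild type lesions, with Y-linked genes the other way round. The sexes therefore read from the arrays were male, female and male in the transgenic group and female throughout in the wild type group. Transgenic arrays correlated with each other at 0.928 to 0.968, and wild type arrays at 0.980 to 0.984. Because these are bulk samples, fewer cells of a type and less RNA per cell cannot be told apart.

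The snoRNA genes had higher mean levels in the transgenic lesions in both classes. Of the 25 H/ACA genes other than Snora23, 24 had a higher mean and 1 a lower mean, and the median difference was 0.43, a 1.34-fold difference. Of the 47 C/D genes, 42 had a higher mean and 5 a lower mean, with a median difference of 0.39, a 1.31-fold difference. Over all 41345 probe sets the median difference was -0.01, and 48.9% had a higher mean in transgenic lesions. No gene of the class passed an adjusted p of 0.05 in limma, nor did any other probe set (0% of all), and the smallest adjusted p among the 72 other than Snora23 was 0.297. At an unadjusted p under 0.05 in limma, 10 of these 25 H/ACA and 15 of the 47 C/D genes were higher and 0 of the 72 were lower. Of all probe sets, 8.87% had such a p, 4.82% being higher and 4.05% lower. Every transgenic array lay above every wild type array in 12 of the 25 H/ACA and 18 of the 47 C/D genes, against 8.54% of all probe sets, and in 0 of the 72 did every transgenic array lie below, against 7.6% of all probe sets.

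The means of the class on each array show the same order without overlap. The 26 H/ACA genes averaged 7.25, 6.81 and 7.12 in transgenic replicates 1, 2 and 3, against 6.41, 6.52 and 6.57 in wild type replicates 1, 2 and 3. For the 47 C/D genes the averages were 6.68, 6.53 and 6.82 in the transgenic lesions and 6.18, 6.28 and 6.37 in the wild type lesions. Transgenic replicate 2 was the lowest of its group in both classes, and wild type replicate 1 the lowest of its own. Group means were 7.06 ± 0.23 and 6.50 ± 0.08 for H/ACA genes, and 6.68 ± 0.14 and 6.28 ± 0.10 for C/D genes, in transgenic and wild type lesions (SD, n = 3 each).

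**Figure D1:**
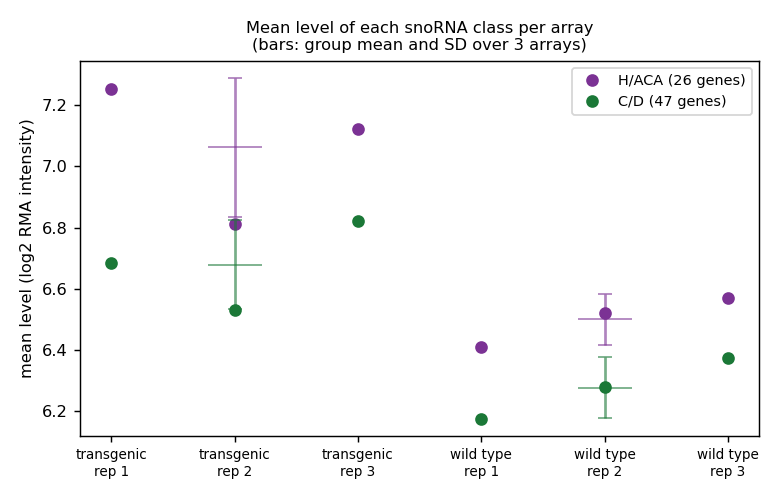
Mean log2 RMA intensity of the 26 H/ACA and 47 C/D snoRNA genes on each of the 6 arrays, with the mean and SD of each group of 3 as bars. In both classes all 3 transgenic arrays sit above all 3 wild type arrays, and transgenic replicate 2, at 6.81 and 6.53, lies nearest to the wild type group.

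Because transgenic replicates 1 and 3 read male and every wild type array read female, sex and genotype coincide for those lesions. Transgenic replicate 2 alone can be set against the 3 wild type arrays of the same sex reading. There the median difference was 0.30 for H/ACA genes, with 19 of 26 higher, and 0.19 for C/D genes, with 34 of 47 higher. Over all probe sets the median there was 0.00, with 20690 of 41345 higher. Without Snora23, 18 of the 25 other H/ACA genes were higher. At an unadjusted p under 0.05 in limma there were 8 higher and 1 lower genes in each class, 34.6% of the H/ACA and 19.1% of the C/D genes, when 25.6% of all probe sets had such a p. These values rest on 1 transgenic lesion, and no wild type lesion read male. For the other transgenic lesions, sex and genotype cannot be told apart. On single arrays, 52 of the 73 genes in transgenic replicate 1, 44 in replicate 2 and 59 in replicate 3 exceeded all 3 wild type arrays. Over all probe sets the shares were 34.7%, 36.2% and 27.3%, against 71.2%, 60.3% and 80.8% of the snoRNA genes.

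Among H/ACA genes, Snora23, whose human counterpart guides pseudouridine formation in the large subunit rRNA, stood at 9.10, 8.86 and 9.25 in transgenic replicates 1, 2 and 3, against 7.67, 7.98 and 8.20 in wild type replicates 1, 2 and 3. The lowest transgenic value lay above the highest wild type value, and the difference was 1.12 (SE 0.19), or 2.17-fold. Snora28, whose human counterpart is a guide for the small subunit rRNA, was at 9.65, 9.82 and 10.24 in the transgenic lesions and at 8.41, 8.94 and 8.85 in the wild type lesions. Its groups did not overlap either, with a difference of 1.17 (SE 0.22, adjusted p 0.297 in limma).

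Snora34 was at 8.67, 7.80 and 8.49 in transgenic lesions and at 6.97, 7.20 and 7.26 in wild type lesions. The difference was 1.18 (SE 0.24, adjusted p 0.357 in limma), and transgenic replicate 2 lay closer to the wild type values than the other two did. Snora15 was at 8.20, 7.93 and 8.58 in transgenic lesions, against 7.26, 7.32 and 7.36 in wild type lesions, a difference of 0.92 (SE 0.19, adjusted p 0.357). The wild type values of Snora15 lay within an SD of 0.05 and all transgenic values were above them. Snora69, a dimmer gene whose wild type values were below the median of the arrays, had 5.49, 4.87 and 5.29 in transgenic lesions and 4.57, 4.45 and 4.17 in wild type lesions, a difference of 0.82 (SE 0.20, adjusted p 0.407). With transgenic replicate 2 alone against wild type, the differences were 0.91 for Snora23, 1.09 for Snora28, 0.66 for Snora34, 0.62 for Snora15, 0.47 for Snora69 and 0.33 for Snora33, each smaller than with all arrays.

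The largest H/ACA difference came from 1 array. Snora20 was at 9.63, 6.00 and 6.53 in transgenic replicates 1, 2 and 3, against 4.98, 5.44 and 5.87 in wild type replicates. Its difference of 1.96 had an SE of 0.87 and an adjusted p of 0.583 in limma. The 3 brightest H/ACA genes were Snora33, Snora28 and Snora21. Snora33 differed by 0.59 (SE 0.20) without overlap, and Snora21 by 0.21 (SE 0.19) with overlapping groups. Snora33 had a second, dimmer probe set, at a mean of 4.11, that differed by -0.003. Snora35, which lies in the gene of the serotonin receptor Htr2c and is known as a brain-expressed RNA, differed by 0.02 with a 95% interval from -0.39 to 0.43. Snora73a and Snora73b, needed for processing of the rRNA precursor, differed by 0.43 (SE 0.29) and 0.58 (SE 0.35), with overlapping groups.

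**Figure D2:**
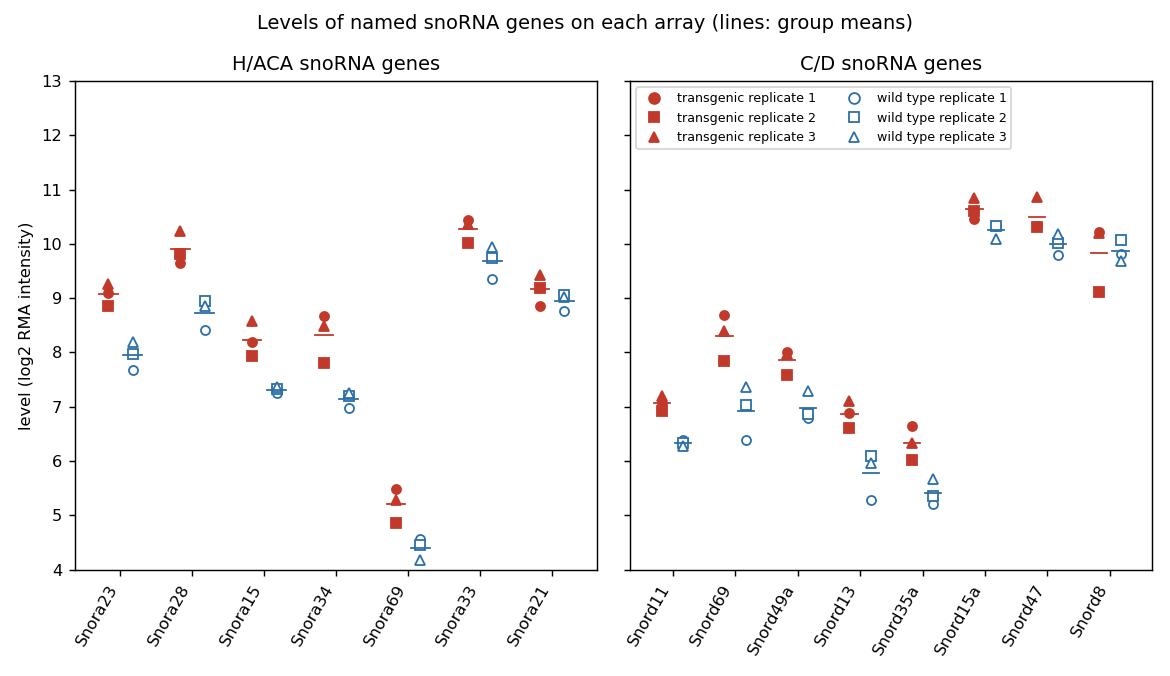
Log2 RMA intensity on every array of the H/ACA genes (left) and C/D genes (right) with the smallest p-values or the highest levels. Filled red symbols are transgenic and open blue symbols wild type lesions, symbol shape gives the replicate, and short lines are group means. Snora23, Snora28, Snora15, Snora34, Snora69, Snord11, Snord69, Snord49a, Snord13 and Snord35a show no overlap, whereas the groups overlap for Snora21 and Snord8.

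Among C/D genes, Snord11 was at 7.08, 6.93 and 7.19 in transgenic replicates 1, 2 and 3 and at 6.39, 6.33 and 6.28 in wild type replicates 1, 2 and 3. Both groups were tight and apart, with a difference of 0.73 (SE 0.14, adjusted p 0.323 in limma). Snord69 had 8.68, 7.83 and 8.40 in transgenic lesions, against 6.38, 7.03 and 7.36 in wild type lesions. Of the 47 C/D differences it was the largest, 1.38 (SE 0.31, 2.61-fold, adjusted p 0.396 in limma).

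Snord13, which pairs with small subunit rRNA and is required for its acetylation, is not a modification guide of the usual kind and was contained in no other annotated gene. It was at 6.89, 6.61 and 7.12 in transgenic lesions and at 5.28, 6.09 and 5.96 in wild type lesions, a difference of 1.09 (SE 0.25, adjusted p 0.400 in limma). Snord118, needed to process the large subunit rRNA and mutated in a human white matter disease, leukoencephalopathy with calcifications and cysts, was at 7.41, 6.60 and 7.31 in transgenic lesions, against 6.60, 6.92 and 6.37 in wild type lesions. Its groups overlapped, with a difference of 0.47 (95% interval -0.13 to 1.07). Snord89, the remaining gene with no containing gene, was at 9.63, 9.91 and 10.34 in transgenic lesions and at 8.92, 9.48 and 9.26 in wild type lesions, without overlap.

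Snord35a lies in the ribosomal protein gene Rpl13a, whose snoRNAs take part in lipotoxic stress in cultured rodent cells. It was at 6.64, 6.02 and 6.34 in transgenic lesions and at 5.22, 5.35 and 5.67 in wild type lesions, a difference of 0.92 (SE 0.21, adjusted p 0.400 in limma). The 3 brightest C/D genes were Snord15a, Snord47 and Snord8. Snord15a differed by 0.39 (SE 0.16) and Snord47, a product of the noncoding growth arrest gene Gas5, by 0.51 (SE 0.20), both without overlap. Snord8, at 10.21, 9.11 and 10.20 in transgenic lesions, against 9.82, 10.07 and 9.69 in wild type lesions, differed by -0.02 (SE 0.31), with transgenic replicate 2 below every wild type array.

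In the same comparison of transgenic replicate 2 with wild type, Snord69 differed by 0.91, Snord13 by 0.83, Snord49a, Snord35a and Snord11 by 0.60 each, and Snord8 by -0.75.

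Of all 73 genes, 10 had a difference of at least 1 and 40 a difference between 0 and 0.5. The lowest values belonged to Snord66 (-0.16), Snord35b (-0.14), Snora2b (-0.09), Snord43 (-0.03), Snord23 (-0.02) and Snord8 (-0.02), whose groups overlapped. Of the 53 genes above the median probe set level of 5.50, 50 had a higher mean and 22, Snora23 among them, an unadjusted p under 0.05. Of the 20 at or below it, 17 had a higher mean and 4 an unadjusted p under 0.05. Such a p occurred at 8.87% of all probe sets, and at 10.9% in a fit to those above the median level alone. The array files hold no detection calls, so a dim gene cannot be called expressed or absent. Annotated lengths ran from 48 to 221 bases, with medians of 118.5 for H/ACA and 68 for C/D genes.

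**Figure D3:**
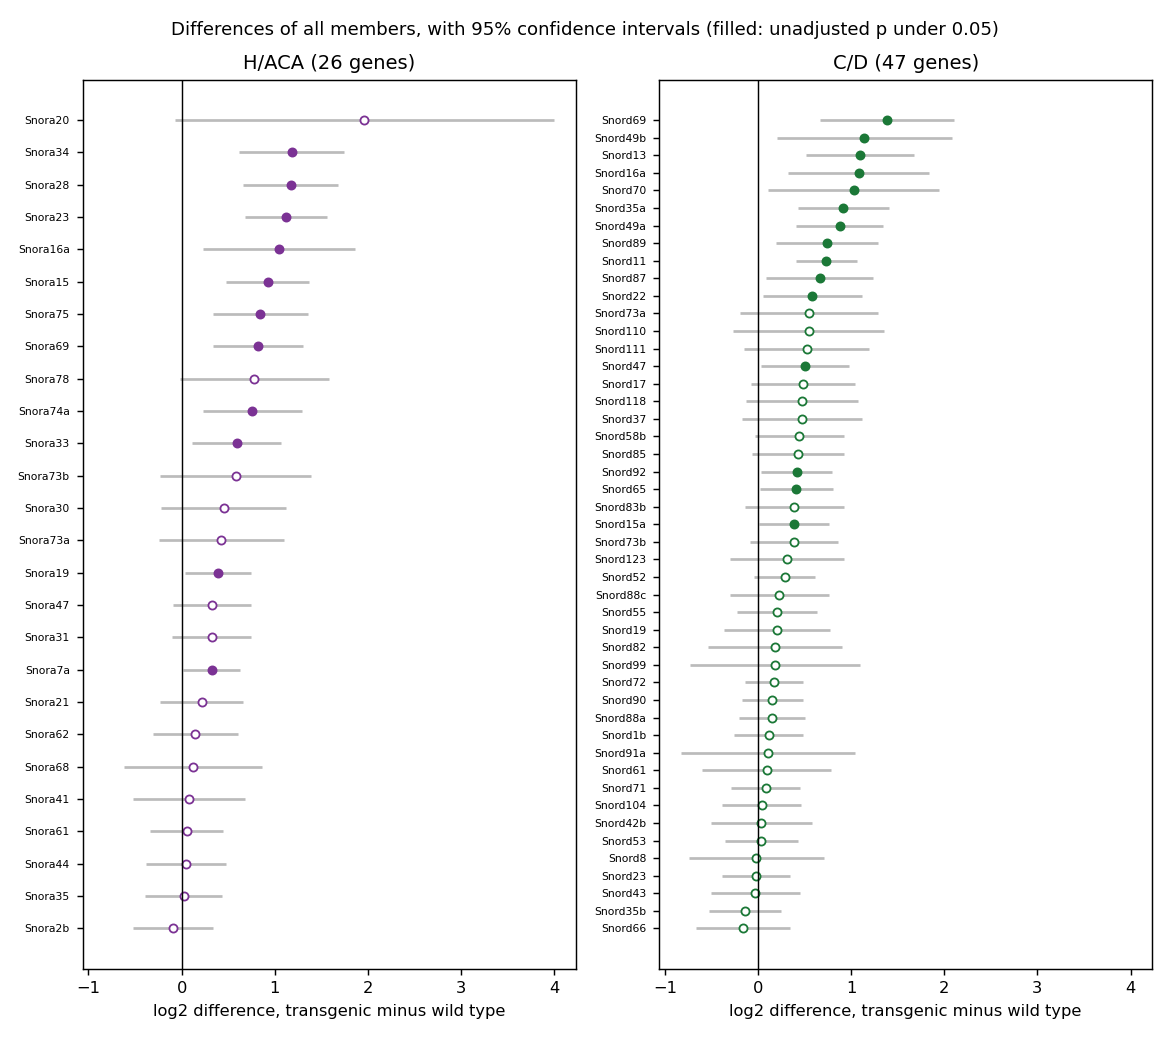
Log2 difference, transgenic minus wild type, of each of the 26 H/ACA and 47 C/D genes with its 95% confidence interval from limma; filled points have an unadjusted p under 0.05. Points run from -0.16 (Snord66) to 1.96 (Snora20), and every filled point lies to the right of 0.

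Host genes were taken as the shortest gene of the RefSeq annotation that contains the snoRNA, without a check of the strand. One was found for 70 of the 73, in 56 different genes, of which 43 had a probe set with 1 symbol. The starts of 6 host genes of members described here are shown, from 50 bases before to 20 bases from the annotated start on, since snoRNA host genes often begin with a run of pyrimidines. Capitals mark an unbroken run of at least 8 C and T bases that overlaps the stretch from 5 bases before to 10 bases from the start on. Sequences are from RefSeq, build GRCm38.p6, each on the strand of the gene: Ipo7 at chr7:110018265-110018334 (plus), 2410006H16Rik at chr11:62602827-62602896 (plus), Eif5 at chr12:111538051-111538120 (plus), Kansl2 at chr15:98534250-98534319 (minus), Gnl3 at chr14:31019112-31019181 (minus) and Nop58 at chr1:59684956-59685025 (plus).
Ipo7: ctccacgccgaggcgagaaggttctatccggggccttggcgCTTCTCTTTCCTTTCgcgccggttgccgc
2410006H16Rik: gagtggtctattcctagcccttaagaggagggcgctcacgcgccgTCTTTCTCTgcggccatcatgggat
Eif5: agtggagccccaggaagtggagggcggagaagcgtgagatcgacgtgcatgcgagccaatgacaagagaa
Kansl2: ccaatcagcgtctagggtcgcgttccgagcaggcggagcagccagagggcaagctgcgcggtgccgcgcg
Gnl3: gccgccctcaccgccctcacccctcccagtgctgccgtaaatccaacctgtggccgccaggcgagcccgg
Nop58: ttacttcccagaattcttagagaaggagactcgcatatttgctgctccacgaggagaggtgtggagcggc

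The run was 15 bases long at Ipo7, which holds Snora23, and 9 at the noncoding 2410006H16Rik, which holds Snord49a, Snord49b and Snord65. No such run overlapped the searched stretch at Eif5, Kansl2, Gnl3 or Nop58, the hosts of Snora28, Snora34, Snord69 and Snord11. The sequence shown for Gnl3 holds a run of the minimum length further upstream, outside that stretch. A run overlapping it occurred at 12 of the 44 host genes with a listed promoter (27.3%) and at 11.3% of all 32851 listed promoters, each read on its own gene's strand only. The 17 snoRNA genes whose host had the run showed a median difference of 0.59, with 10 at an unadjusted p under 0.05. The 40 whose host lacked it had a median of 0.35, with 11. Over all probe sets 8.87% had such a p, 4.82% being higher. Snora23, for whose difference the class was taken up, is counted among the 17 and the 10. No test was made of that contrast, and a run of these letters is not shown to act as a regulatory site.

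The 34 measured protein-coding host genes had a median difference of 0.01, with 17 higher and 17 lower means, and a median of 0.066 with transgenic replicate 2 alone. Ipo7, an importer of ribosomal proteins into the nucleus, was at 8.39, 8.46 and 8.66 in transgenic lesions, against 8.64, 8.57 and 8.54 in wild type lesions. Its groups overlapped and its difference was -0.08 (95% interval -0.42 to 0.25), beside 1.12 for Snora23 within it. Eif5, a translation initiation factor that holds Snora28, differed by -0.04 (-0.42 to 0.33) and Cct6a, a chaperonin subunit that holds Snora15, by 0.18 (-0.14 to 0.50). Nop58, itself a core C/D protein, differed by 0.11 (-0.23 to 0.46), whereas Snord11 within it differed by 0.73. Snord70, also in Nop58, differed by 1.03 (SE 0.39), at dim levels of 3.46 to 5.42 and with overlapping groups.

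Kansl2, a subunit of a histone acetyltransferase complex, was an exception at 7.09, 7.26 and 7.22 in transgenic lesions and 6.34, 6.20 and 6.52 in wild type lesions, without overlap. On this brightest probe set it differed by 0.83 (SE 0.15, adjusted p 0.291 in limma). With all probe sets of Kansl2 averaged, the difference was 0.37 (SE 0.23). Of its snoRNAs, Snora34 differed by 1.18 and Snora2b by -0.09, Snora2b being at levels of 3.32 to 3.93 on all 6 arrays.

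All 9 measured noncoding hosts had a higher mean. Their median difference was 0.35, and 3 of the 9 (33.3%) had an unadjusted p under 0.05, as had 8.87% of all probe sets. Snhg3, host of Snora73a and Snora73b, was at 7.82, 6.73 and 6.84 in transgenic lesions, against 6.17, 6.09 and 6.54 in wild type lesions, a difference of 0.86 (SE 0.30). Snhg9 differed by 0.45 and Snhg4 by 0.43, while 2410006H16Rik differed by 0.29 (SE 0.16). The 20 snoRNA genes inside a noncoding host had a median difference of 0.42, and the 50 inside a protein-coding host 0.39. With transgenic replicate 2 alone these medians were 0.076 and 0.29. The median of the 9 noncoding hosts was 0.31 there, with all 9 higher, and so above that of the snoRNA genes inside noncoding hosts. In all, 22 genes with an unadjusted p under 0.05, Snora23 among them, had a measured host. Of these, only Snora34 and Snora74a had a host (Kansl2 and Snhg4) that also had an unadjusted p under 0.05. For Kansl2 that held on its brightest probe set, and with its probe sets averaged the unadjusted p was 0.15 in limma. The difference between snoRNA and host was not tested. Nothing in the files says whether a snoRNA probe set reads the mature RNA or the intron before it is cut.

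**Figure D4:**
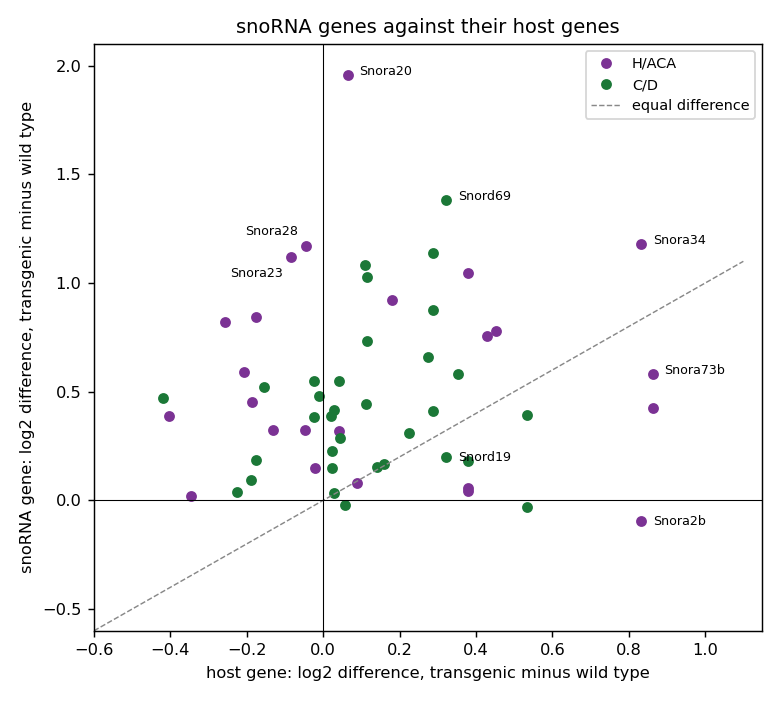
Log2 difference of each of the 57 snoRNA genes with a measured host (vertical axis) against that of its host gene (horizontal axis), both transgenic minus wild type; the dashed line marks equal differences. In 46 of the 57 the snoRNA gene had the more positive difference, while Snora2b, in Kansl2, lies below the line.

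Genes that share a host did not always differ alike. Inside the noncoding Snhg12 (difference 0.38), Snora16a was at 7.93, 6.47 and 7.22 in transgenic lesions, against 5.98, 6.14 and 6.36 in wild type lesions, a difference of 1.05 (SE 0.35). Its neighbours Snord99, Snora61 and Snora44 differed by 0.18, 0.06 and 0.04. Within Gnl3, a nucleolar GTPase gene, Snord69 differed by 1.38 and the dim Snord19 by 0.20 (95% interval -0.37 to 0.77). In the gene of nucleolin, Ncl, Snora75 differed by 0.85 (SE 0.22) and Snord82 by 0.18 (SE 0.31). In 2410006H16Rik all 3 were higher, Snord49b by 1.14 (SE 0.40), Snord49a by 0.88 (SE 0.20) and Snord65 by 0.41 (SE 0.17), each without overlap. These contrasts within a host were not tested.

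Probe sets with a snoRNA symbol beside other symbols were outside the rule. There were 43, among them 16 of the Snord116 cluster with identical values, so that 28 distinct value sets remained. Of the 28, 21 had a higher mean and 7 a lower mean, with a median difference of 0.32. At an unadjusted p under 0.05, as 8.87% of all probe sets had, 10 of the 28 (35.7%) were higher and 0 lower. With transgenic replicate 2 alone their median was 0.078, with 16 of 28 higher. The probe set shared by Snora81 and its host Eif4a2 was at 8.53, 8.27 and 8.62 in transgenic lesions, against 7.68, 7.13 and 7.38 in wild type lesions, without overlap. The probe set shared by Snord12 and the noncoding Zfas1 differed by 1.52 (SE 0.48), and that shared by Snord68 and Rpl13 by 1.43 (SE 0.38). The Snord116 cluster, a neuronal imprinted array of C/D snoRNA copies, differed by 0.09 (SE 0.15).

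Of 18 measured genes of core proteins and assembly factors, 12 had a higher and 6 a lower mean, with a median difference of 0.04. At an unadjusted p under 0.05, as 8.87% of all probe sets had, 2 of the 18 were higher and 1 lower (16.7%). With transgenic replicate 2 alone against the wild type lesions, which read the same sex, their median was 0.27 with 15 of 18 higher, beside 0.30 for H/ACA and 0.19 for C/D genes. The median of the particle proteins was therefore not lower than that of C/D genes there. In the H/ACA core, Nop10 was at 11.05, 10.89 and 10.90 in transgenic lesions, against 10.23, 10.55 and 10.68 in wild type lesions (difference 0.46, SE 0.16). Dkc1, the pseudouridine synthase, was at 6.13, 6.53 and 6.17 in transgenic lesions, against 6.61, 6.70 and 6.65 in wild type lesions (difference -0.38, SE 0.16), so that these core members lay on opposite sides. Nhp2 and Gar1 differed by 0.03 and -0.01. For the C/D core, 3 of 4 listed genes were measured, and Snu13, Nop58 and Nop56 differed by 0.23, 0.11 and 0.04. Among 11 assembly factors, Znhit3 differed by 0.59 (SE 0.18), Ruvbl2 by -0.23, Ruvbl1 by -0.21 and Pih1d1 by 0.11, and 7 of the 11 had a higher mean. Of 11 listed noncoding hosts and imprinted loci, 9 were measured, with 6 higher means and a median difference of 0.27; Snhg14, the transcript that carries the Snord116 copies, differed by 0.46 (SE 0.17) and Rian by -0.19.

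Other small RNA genes went in several directions. The 467 genes with a symbol of Mir and a number, microRNA host genes left out, had a median difference of 0.01, with 20 higher and 16 lower at an unadjusted p under 0.05. These were 7.71% of the 467, near the 8.87% of all probe sets. Among 4 Rnu genes, Rnu3a, whose RNA is the C/D snoRNA of early rRNA precursor cleavage despite its symbol, was at 10.73, 8.61 and 9.76 in transgenic lesions, against 8.02, 8.21 and 8.44 in wild type lesions (difference 1.48, SE 0.48). Rnu12, of the minor spliceosome, differed by 1.20 (SE 0.33) and its partner Rnu11 by -0.15 (SE 0.20). In both higher genes transgenic replicate 1 was the highest array. The 5 Scarna genes, guides of Cajal bodies, ran from -0.68 (Scarna17) to 0.57 (Scarna6). The abundant polymerase III transcripts Rn7sk and Rpph1 differed by 0.00 and 0.04.

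**Figure D5:**
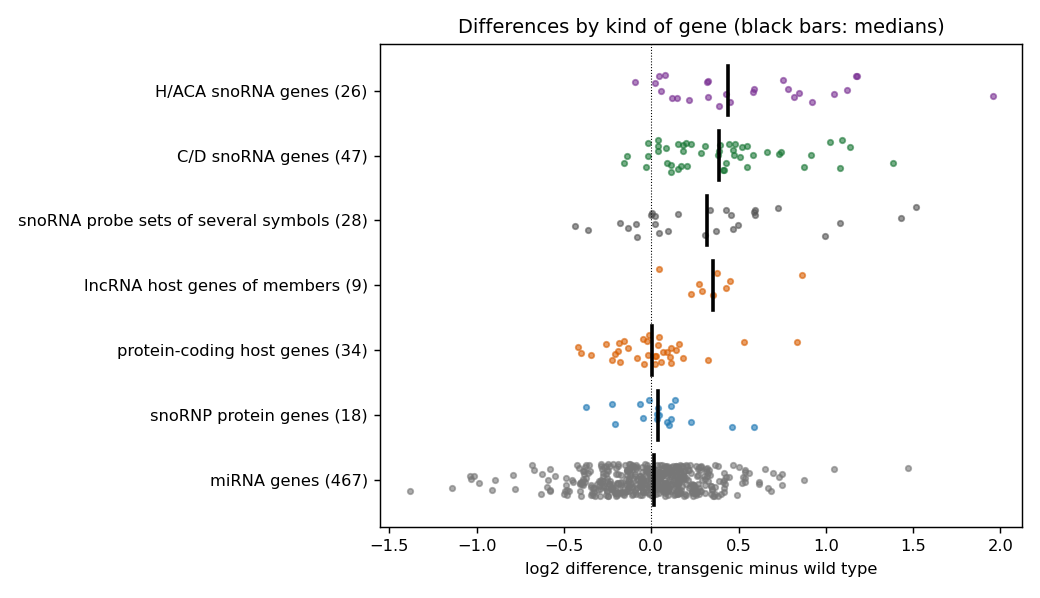
Log2 differences, transgenic minus wild type, of single genes or probe sets by kind, with medians as black bars and the number of each in brackets. Medians lie at 0.44 and 0.39 for H/ACA and C/D genes, at 0.35 for noncoding hosts, and at 0.01, 0.04 and 0.01 for protein-coding hosts, particle proteins and microRNA genes. With transgenic replicate 2 as the only transgenic array, they were 0.30 for H/ACA genes, 0.19 for C/D genes and 0.27 for particle proteins. Noncoding hosts were then at 0.31 and protein-coding hosts at 0.066.

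Of the lists of cell type markers, only the myelin list had array means without overlap between the groups. All 5 measured myelin genes of 6 listed were lower, with array means of 8.77 to 9.64 in transgenic and 10.01 to 10.45 in wild type lesions. The 5 neuron genes averaged 9.86 to 10.26 in transgenic and 9.57 to 9.89 in wild type lesions. The 5 astrocyte genes averaged 8.10 to 8.60 in transgenic and 8.55 to 8.89 in wild type lesions, and the 5 microglia and macrophage genes 7.19 to 7.97 in transgenic and 7.38 to 8.67 in wild type lesions. Of 5 listed striatal genes 4 were measured, at 5.95 to 6.31 in transgenic lesions, and at 6.03 in wild type replicate 1 and 7.87 and 8.48 in replicates 2 and 3. Without detection calls, these levels do not tell whether a marker was present or absent. The part of these cell types in the snoRNA differences was not tested.

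The counts depend on single arrays for the C/D class. At an unadjusted p under 0.05, 15 of 47 passed with all arrays, but leaving out transgenic replicate 3 left 8, leaving out wild type replicate 1 left 6 and leaving out wild type replicate 2 left 8. The shares of all probe sets were then 9.17%, 4.91% and 5.45%. All C/D genes counted in these 3 fits were higher in transgenic lesions. For H/ACA genes the count lay between 8 and 14 of 26 without each array in turn, when between 4.91% and 12.5% of all probe sets had such a p. Snora23, for whose difference the class was taken up, is one of the 26. Without transgenic replicate 2, which leaves male transgenic and female wild type lesions, Snord16a (adjusted p 0.00503 in limma), Snora34 (0.0113) and Snora15 (0.0491) passed, as did 335 of all 41345 probe sets (0.81%).

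As a description, the genes whose 6 array values followed Snora23 most closely were Psmg3, Timm10, Cabp1, Tmem170 and Sult1a1, with Pearson correlations of 0.991, 0.984, 0.983, 0.980 and 0.980 over the 6 arrays, which share the split between the groups. Among snoRNA genes Snord49a came first, at rank 7 with 0.978. Eif4a2, the translation factor gene that holds several snoRNAs, followed at rank 10 with 0.977. It had 10.29, 10.08 and 10.60 in transgenic lesions, against 9.17, 9.08 and 9.43 in wild type lesions. The probe set that Eif4a2 shares with Snord2 differed by -0.08.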

How the data were processed

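RMA intensities of 6 Affymetrix arrays were analysed, 3 transgenic and 3 wild type lesions, grouped by sample title. Per the submitters' processing notes, the authors made the deposited intensity values by RMA in Affymetrix Expression Console; the deposited scale is linear. For tool versions and genome build, the sources used here give nothing. Values were turned to log2 without a pseudocount, the lowest being 3.73. limma (version 3.58.1 in R 4.3.3) was fitted to all 41345 probe sets with lmFit and eBayes, two-sided and without covariates, and p-values were adjusted by Benjamini-Hochberg across the whole table (threshold 0.05). The number of arrays limits the precision, with a median SE of 0.19. SDs are over 3 arrays, and intervals are 95% limma intervals.

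The members and lists were chosen with earlier results of these data known, so no set test was made. Named members were Snora23; in each class and direction, up to 5 non-overlapping members with the smallest p; the 3 brightest; and those sharing a host. From lists of proteins and hosts, up to 4 genes with the smallest p were described; the others named were chosen after their values were seen. Genes were named from GEO's platform annotation, which gave 23521 probe sets 1 symbol, 1814 several and 16010 none. Hosts, lengths and promoters came from RefSeq GRCm38.p6. Members of the imprinted Snord115, Snord116, Snord64, Snord107, Snord113 and Snord114 families with 1 symbol numbered 0. Simulated data with known changes were used to check the fit. Same-numbered arrays deviated together at correlations of 0.01, -0.10 and -0.07, and differently numbered ones at -0.07 to 0.11. With deviations taken from means of 3 arrays, these values cannot settle whether the replicate numbers pair samples. Alternatives covered normalization, filters, probe choice, pseudocount, array weights, sex, replicate block and leaving out arrays.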

Additional observations from a re-analysis of the deposited data

How the results depend on the processing

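Leaving out each array in turn gave median differences of 0.41 to 0.61 (H/ACA), 0.30 to 0.40 (C/D) and -0.074 to 0.16 (particle proteins, negative without transgenic replicate 2), a Snora23 difference of 0.98 to 1.24, 8 to 14 H/ACA and 6 to 20 C/D genes at an unadjusted p under 0.05, and 0 to 3 genes past the adjusted threshold. Of all probe sets, 4.91% to 12.5% then had an unadjusted p under 0.05. The H/ACA set here includes Snora23. Array weights gave transgenic replicate 3 a weight of 7.67 and the other transgenic arrays 0.28 and 0.26. They raised the counts to 19 H/ACA and 33 C/D genes, when 26.1% of all probe sets had an unadjusted p under 0.05. Past the adjusted threshold were then 28 genes, Snora23 among them, against 6.32% of all probe sets. The Snora23 difference was then 1.28. With sex as a covariate, a fit whose genotype term rests on transgenic replicate 2, the medians were 0.19 for C/D genes and 0.27 for particle proteins, and 1 of 73 genes, Snord70, passed, against 3.58% of all probe sets; 8 H/ACA (7 higher) and 10 C/D genes (9 higher) had an unadjusted p under 0.05, against 20.8% of all probe sets. Comparing that array with wild type alone, chosen after seeing the data and with the lone lesion assumed to vary like the wild type ones, gave 0.19 and 0.27, 9 C/D genes (19.1%, against 25.6% of all probe sets) and 2 past the adjusted threshold, against 4.46% of all probe sets. On a log2(value + 16) scale the C/D median was 0.23. Quantile normalization, median centring, leaving out dim probe sets (20 of the 73 genes) and averaging a gene's probe sets kept the medians of both classes within the spread of replicates and their counts within 1.5 times. With the replicate number as a block the counts were 10 and 13 and the Snora23 difference 1.12; Snord15a and Snord65 no longer had an unadjusted p under 0.05, and 0 genes passed the adjusted threshold with or without the block. The causes of these shifts were not tested. Probe sets near background and 3 arrays a group limit what small differences can be seen.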
